A study of Mus musculus with 78 samples.

Results

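Dppa2, Dppa3, Dppa4 and Dppa5a are the developmental pluripotency associated (Dppa) genes followed here, and these 4 genes were taken by gene name from the 54446 genes of the RNA-seq tables and the 54435 genes of the nascent RNA table. All 4 genes passed the filter on low values in every comparison. The study asked what follows when TRIM28, a co-repressor that keeps endogenous retroviruses (ERVs) in H3K9me3 heterochromatin, is removed within hours from mouse embryonic stem cells (mESCs). The cells were of the line V6.5 with an FKBP degron tag knocked into Trim28 in a clone-derived line, so that the ligand dTAG-13 triggers destruction of the TRIM28-FKBP protein, and they grew in serum and LIF. For the time course, nascent RNA and ChIP-seq, feeder fibroblasts were depleted before the cells were seeded on gelatin, and the study's methods state this for RNA-seq in general, whereas the labels of the shREPEATS and parental libraries describe growth on feeders and name no depletion.

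RNA-seq covered DMSO controls and 500 nM dTAG-13 for 2, 6, 24 and 96 h, and nascent RNA was measured by TT-SLAM-seq, in which RNA made during a 15 min pulse of 4-thiouridine is captured and read, at DMSO, 2, 6 and 24 h. The titles of these DMSO libraries name 0 h and the treatment text of the RNA-seq ones names 24 h of DMSO, and time in culture cannot be told apart from treatment at 96 h. A further tagged line, named shREPEATS in the labels and shERV in the plots, carries doxycycline (Dox) inducible short hairpins against ERV RNA and was read after DMSO, dTAG-13, and dTAG-13 with Dox, each for 24 h. The titles and the treatment entry place Dox in 1 of these 3 groups, but the longer protocol text of all 3 names a pretreatment with 2 µg/mL Dox. The groups follow the titles and the treatment entry, and this limit applies to every value from that line. Untreated parental V6.5 mESCs without the tag, and neural progenitor cells (NPCs) given DMSO, were the other RNA groups. H3K27Ac, H3K9me3, RNA polymerase II (RNAPII) and the Mediator subunit MED23 were mapped by ChIP-seq after DMSO or 24 h of dTAG-13. RNA, H3K27Ac and H3K9me3 groups held 3 libraries each, and RNAPII and MED23 groups held 2 each.

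The 4 genes share a family name, and not all of them encode related proteins. DPPA2 and DPPA4 are SAP domain proteins that bind DNA as a pair, keep developmental promoters poised and act upstream of Dux, Zscan4 and other genes of the 2-cell stage embryo. DPPA3 (also called STELLA or PGC7) binds UHRF1, hinders maintenance DNA methylation, protects the maternal genome after fertilization and marks primordial germ cells and naive mESCs. DPPA5A (ESG1) is a KH domain RNA-binding protein of naive mESCs, and Ooep, next to it, and Khdc3 encode KH domain proteins of the oocyte's subcortical complex.

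In GRCm38 (mm10) coordinates, Dppa4 (ENSMUSG00000058550.15) lies on chromosome 16 at chr16:48283733-48294237 on the plus strand, and Dppa2 (ENSMUSG00000072419.5) follows on the same strand at chr16:48303908-48319723. The starts of the pair are 20175 bp apart. The RefSeq start of Dppa2 is at position 48310274, inside the gene as given in the deposited tables. Dppa3 (ENSMUSG00000046323.8) lies on the plus strand at chr6:122626410-122630272, with Nanog 81.1 kb downstream, and Gdf3 and Apobec1 16.3 and 24.0 kb upstream. Dppa5a (ENSMUSG00000060461.5) lies on the minus strand at chr9:78367052-78368177, with the start of Ooep 10548 bp away.

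The strongest MED23 summits within 10 kb of Dppa3 and Dppa5a lay upstream of the genes, and their sequences are shown because MED23 enrichment there is followed through the treatment at the end of the results. Each is the 151 bases centred on the summit in DMSO replicate 1, read 5′ to 3′ on the plus strand of GRCm38, with capitals marking matches to a searched motif.
Dppa3 upstream summit, chr6:122624590-122624740: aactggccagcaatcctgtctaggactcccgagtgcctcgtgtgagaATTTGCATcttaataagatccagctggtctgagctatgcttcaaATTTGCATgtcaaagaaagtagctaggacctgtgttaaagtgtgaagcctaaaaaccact
Dppa5a upstream summit, chr9:78369512-78369662: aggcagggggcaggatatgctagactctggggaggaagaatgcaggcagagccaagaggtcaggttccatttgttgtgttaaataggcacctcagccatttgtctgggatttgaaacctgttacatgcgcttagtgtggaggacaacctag
The Dppa3 summit lay 1745 bp upstream of the gene start and held 2 copies of ATGCAAAT, the octamer bound by POU factors such as OCT4, both on the minus strand, starting at bases 48 and 92. The same letters stood in 2.89% of the 63045 MED23 summit windows of that library on either strand. The Dppa5a summit lay 1410 bp upstream and held none of the 5 words searched on both strands, which were ATGCAAAT, ACAATG (SOX factors, in 9.41% of windows), CAAGGTCA (ESRRB, 2.02%), CACGCCC (KLF factors, 2.65%) and GGAATG (TEAD factors, 12.8%). These matches describe letters only.

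The libraries differed in depth and in markers of other cells. TT-SLAM-seq libraries were scaled to between 6480590 and 24259043 reads, and the relative depth of the RNA-seq libraries ran from 0.328 (24 h, replicate 1) to 1.73 (parental, replicate 3). The summed TPM of 8 pluripotent cell markers was 3675 to 3843 in DMSO, 2333 to 2460 at 24 h and 533 to 613 at 96 h. The sum of 12 feeder fibroblast markers was 27.8 to 28.6 TPM in DMSO, 39.8 to 42.3 at 24 h and 320 to 345 at 96 h. At 96 h, 10 of the 10 measured feeder markers rose, and of 7 endoderm markers 5 rose and 2 fell. Over all genes, 42.9% rose and 37.4% fell at that time. Feeder marker sums were 115 to 134 over the 3 shREPEATS groups and 139 to 143 in parental cells. In NPCs, 3 of the 8 pluripotent markers were listed at 0, and 8 neural markers summed to 5449 to 5474 TPM. Neural marker sums were 255 to 274 TPM in DMSO, 176 to 197 at 24 h, 1333 to 1373 at 96 h, where 2 of 6 measured neural markers rose and 3 fell, and 651 to 794 over the shREPEATS groups. The part of these markers in the results was not tested, and fewer cells of a type cannot be told apart from less RNA per cell. TRIM28 was removed as protein, so Trim28 mRNA, at 624 ± 2.28 TPM in DMSO and 372 ± 9.18 at 24 h (SD, n = 3), checks nothing on the labels.

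Differences are given as log2 changes of TPM or FPKM after adding 0.5, which understates changes of low values, and "rose" or "fell" means an adjusted p below 0.05 in limma over all genes tested. The paper calls the replicates of its nascent RNA, time course and hairpin RNA-seq biological. Nothing in the labels states that they came from separate cultures, so the p-values measure the spread between these samples. TPM is per transcript length and the nascent FPKM is per length of the whole gene, introns included, so levels are not compared between the 2 assays.

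All 4 genes were expressed in the DMSO libraries of the degron line, in an order in which the ranges of neighbours did not overlap. Dppa5a stood at 1843 ± 139.6 TPM, Dppa4 at 155 ± 3.94, Dppa2 at 119 ± 4.87 and Dppa3 at 75.4 ± 4.36 (SD, n = 3). Steady-state RNA of the 4 genes took 4 different courses after dTAG-13. Dppa5a was the earliest to fall, Dppa2 had its low point at 24 h, Dppa4 fell at 24 h and further at 96 h, and Dppa3 overlapped DMSO at 24 h and was low at 96 h.

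**Figure D1:**
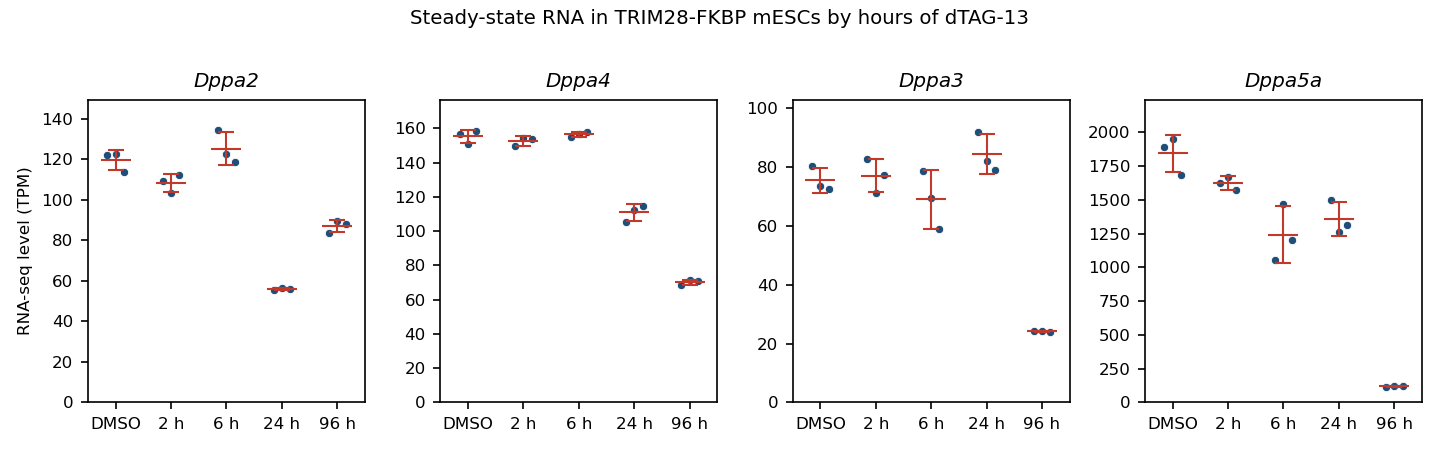
Steady-state RNA of the 4 Dppa genes (TPM, linear axes from 0) in DMSO controls and at 2, 6, 24 and 96 h of dTAG-13, with 1 point per library (n = 3) and a red bar for the mean ± SD. Dppa2 is lowest at 24 h (56.1 ± 0.390 TPM), whereas the other 3 genes are lowest at 96 h.

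At 2 h, none of the 4 genes passed the test in RNA-seq, where 15.3% of 17922 genes did, and 1 of the 4 had an unadjusted p below 0.05. At 6 h, 1 gene, Dppa5a, fell, against 15.5% of all genes. At 24 h, 3 of 4 genes fell, against 25.0%, and at 96 h all 4 fell, against 37.4%. With a change of more than 2-fold added, 1 gene was lower at 24 h, where 2.01% of all genes were, and 3 genes were lower at 96 h, where 12.4% were. The values of the treated and DMSO libraries did not overlap for 3 genes at 24 h and for 4 at 96 h, which held for 70.1% and 83.1% of all genes. The median log2 change of all genes was 0.13 at 24 h and 0.05 at 96 h, against -0.46 and -1.38 over the 4 genes.

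Dppa2, the DNA-binding partner of Dppa4, was read at 122, 123 and 114 TPM in the 3 DMSO libraries. After 24 h of dTAG-13 it stood at 55.6, 56.4 and 56.2 TPM, and at 96 h at 83.7, 89.7 and 87.9 TPM. The 3 times did not overlap, and the 24 h libraries lay lowest and closest together. Dppa2 RNA was thus 0.469 times the DMSO level at 24 h (log2 change -1.08, SE 0.05, adjusted p = 3.99e-10). At 96 h it was still below DMSO (log2 change -0.45, adjusted p = 6.78e-07, or -0.73 with each library centred on its median gene) but above its 24 h level (log2 change 0.63, SE 0.05, adjusted p = 1.98e-08). Dppa2 was the only one of the 4 genes that rose between 24 and 96 h, where 37.4% of all genes rose and 42.0% fell, while the other 3 fell. Before 24 h its RNA stayed between 103 and 134 TPM, with log2 changes of -0.14 at 2 h (adjusted p = 0.0661) and 0.07 at 6 h (adjusted p = 0.329). The 6 h direction turned to -0.03 when each library was centred on its median gene. Without DMSO replicate 3 the 2 h change was -0.18 with an adjusted p of 0.0417.

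Dppa4, which encodes the other protein of the pair, was read at 157, 151 and 158 TPM in DMSO. It stood at 105, 113 and 115 TPM at 24 h and at 68.7, 71.4 and 70.8 TPM at 96 h. These 3 groups stepped down with no overlap. The log2 change was -0.48 at 24 h (SE 0.03, adjusted p = 3.01e-08, or -0.77 with libraries centred on their median) and -1.14 at 96 h (SE 0.03, adjusted p = 6.09e-13), and the step from 24 to 96 h was -0.65 (adjusted p = 3.34e-10). At 2 and 6 h, the libraries lay between 149.6 and 158 TPM, with log2 changes of -0.02 and 0.01, and the second became -0.08 with libraries centred on their median and -0.01 without DMSO replicate 2. From 24 to 96 h, the adjacent genes Dppa2 and Dppa4, whose proteins pair, thus moved in opposite directions.

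The 2-cell stage genes downstream of the pair were followed with a list of 20 genes, all of them measured. At 6 h, 8 of the 20 rose, where 18.4% of all genes did, and none fell. At 24 h, 6 rose and 7 fell, where 42.9% and 25.0% of all genes did, with a median log2 change of -0.13, and none moved more than 2-fold. Duxf3, which encodes the transcription factor DUX that switches on 2-cell genes, rose at 24 h from 2.19 ± 0.252 to 3.25 ± 0.185 TPM (log2 change 0.48, adjusted p = 0.00318), and Zscan4d, a 2-cell marker, fell from 36.2 ± 1.06 to 28.7 ± 2.18 TPM (log2 change -0.33, adjusted p = 0.00602). At 96 h, 14 rose and 4 fell, where 42.9% and 37.4% of all genes did, with a median of 0.56, while Dppa2 and Dppa4 were both lower than in DMSO. Zscan4d then stood at 58.2 ± 4.90 TPM (log2 change 0.68, adjusted p = 1.04e-05). Gm5662, also on the list, went from 24.6 ± 0.0535 TPM in DMSO to 12.6 ± 0.623 at 24 h and 12.9 ± 0.508 at 96 h.

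Dppa3, the UHRF1-binding factor, was read at 80.4, 73.4 and 72.4 TPM in DMSO. After 24 h it stood at 91.8, 82.1 and 78.8 TPM, a range that overlapped DMSO. By 96 h it had dropped to 24.2, 24.2 and 23.8 TPM, far below every earlier library. The 24 h change did not pass the test (log2 change 0.16, 95% interval -0.03 to 0.35, adjusted p = 0.133), became -0.13 when libraries were centred on their median, and passed with the replicate number as a block (adjusted p = 0.0471). At 96 h, Dppa3 RNA was 0.320 times the DMSO level (log2 change -1.62, SE 0.09, adjusted p = 3.61e-10). At 2 and 6 h the log2 changes were 0.03 and -0.14 (adjusted p = 0.871 and 0.265), the first became -0.02 without the 2 h replicate 1, and the second passed the test without the 6 h replicate 1 (log2 change -0.24, adjusted p = 0.0476).

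The DNA methylation machinery that DPPA3 touches was followed with 9 genes. At 24 h, 1 of 9 rose and 4 fell, against 42.9% and 25.0% of all genes, among them Dnmt3l, a cofactor of de novo methylation (483 to 152 TPM on average, log2 change -1.67, SE 0.05, adjusted p = 2.37e-11), and Dnmt3b, a de novo methyltransferase (log2 change -1.04, adjusted p = 9.60e-11). Uhrf1, the partner of DPPA3, stood at 248 ± 4.72 TPM in DMSO and at 239 ± 3.68 TPM at 24 h (adjusted p = 0.170). At 96 h, when Dppa3 was low, 7 of 9 fell and 1 rose, against 37.4% and 42.9% of all genes, with Uhrf1 at 122 ± 5.28 TPM (log2 change -1.02, adjusted p = 1.27e-12). Tet1, which oxidizes methylated cytosine, fell by 3.54 on the log2 scale (adjusted p = 2.23e-15), while Tet3 rose by 1.59 (adjusted p = 9.29e-13). Of 10 germ cell genes, 1 rose and 6 fell at 24 h, where 25.0% of all genes fell. At 96 h, 2 rose and 5 fell of the 10, where 42.9% and 37.4% of all genes did.

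The neighbours of Dppa3 did not all follow its course. Nanog, a core pluripotency factor, rose at 24 h from 136 ± 4.84 to 199 ± 8.62 TPM (log2 change 0.54, adjusted p = 3.56e-06) and stood at 30.1, 33.5 and 35.4 TPM at 96 h. Apobec1, a cytidine deaminase, was also higher at 24 h (15.5 ± 0.338 to 22.3 ± 1.18 TPM) and lower at 96 h (4.32 ± 0.255 TPM). Gdf3, a TGF-beta family ligand, was instead lower already at 24 h, at 43.9 ± 2.29 TPM against 75.1 ± 2.21 in DMSO, and reached 9.89 ± 0.661 TPM at 96 h.

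Dppa5a, the KH domain gene, was read at 1894, 1949.5 and 1685 TPM in DMSO. It stood at 1053, 1471 and 1199 TPM at 6 h and at 1497, 1263 and 1309.99 TPM at 24 h. Both groups lay below every DMSO library and overlapped each other. By 96 h it was at 111, 118 and 125 TPM. Dppa5a RNA was 0.673 times the DMSO level at 6 h (log2 change -0.58, SE 0.10, adjusted p = 0.000793), 0.736 times at 24 h (log2 change -0.44, SE 0.10, adjusted p = 0.00140, or -0.73 with libraries centred on their median) and 0.0641 times at 96 h (log2 change -3.96, SE 0.10, adjusted p = 9.39e-14). The log2 change at 2 h was -0.18 (adjusted p = 0.265). Some reads cannot be placed with certainty between Dppa5a and its copies, since 10.0% of the 570 stretches of 50 bases in its transcript, and 0.962% of the 520 stretches of 100 bases, also occur in Dppa5b or Dppa5c. Dppa5b was listed at 9.76 to 11.8 TPM in DMSO.

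Only 3 of the 8 genes on the list of KH domain and oocyte complex genes were high enough to test. Of these, 2 fell at 6 h (15.5% of all genes did), 2 at 24 h (25.0%) and 3 at 96 h (37.4%). With 3 genes tested, these counts describe single genes rather than the list. Ooep, next to Dppa5a, stood at 29.2 ± 1.36 TPM in DMSO, 25.0 ± 1.11 at 24 h (log2 change -0.22, adjusted p = 0.0129) and 0.896 ± 0.0936 at 96 h (log2 change -4.42, adjusted p = 1.61e-15). Khdc3 was at 24.9 ± 0.491 TPM in DMSO and 1.22 ± 0.259 at 96 h (log2 change -3.90, adjusted p = 1.91e-13). Ddx43, an RNA helicase gene 27.6 kb from Dppa5a, was at 9.13 ± 0.269 TPM in DMSO and 1.11 ± 0.0946 at 96 h.

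The wider pluripotency network was followed with 20 genes. Of these, 14 fell and none rose at 6 h, 17 fell and 1 rose at 24 h, and 19 fell and 1 rose at 96 h, where 15.5%, 25.0% and 37.4% of all genes fell. The median log2 change of the list was -0.75 at 24 h and -3.11 at 96 h. Among the lowest at 24 h were Nr0b1, an orphan nuclear receptor gene (log2 change -2.85, adjusted p = 9.37e-12), and Klf4, a naive pluripotency factor (log2 change -1.89, adjusted p = 2.42e-12). On the same scale, without centring, the 24 h changes were -0.48 for Dppa4, -0.44 for Dppa5a and -1.08 for Dppa2, and the 96 h change of Dppa5a was -3.96.

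Likeness to each Dppa gene was measured as the root mean square difference of the 4 log2 changes at 2, 6, 24 and 96 h, over 17922 genes, as a description. The genes closest to Dppa5a were Esrrb, a naive pluripotency factor (0.130), and Khdc3 (0.135), followed by the pseudogene Tdgf1-ps1 (0.198). Nol9 (0.0234) and Qser1 (0.0376) were closest to Dppa4. Gm9788 (0.0505), Ttc30a1 (0.0592) and Gm24182 (0.0602) were closest to Dppa2. Gm12241 (0.0752), Rhebl1 (0.0848) and Snhg17 (0.0872) were closest to Dppa3. Among the 4 genes themselves, Dppa3 and Dppa4 were 0.410 apart, Dppa2 and Dppa4 0.460, and Dppa2 and Dppa5a 1.81. The nearest genes were picked out of 17922, so their smaller distances say nothing about the likeness of the 4 genes to each other.

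The falls of steady-state RNA at 6 and 24 h had no counterpart that passed the test in nascent RNA. In TT-SLAM-seq none of the 4 genes passed the test at 2 h, where 3.55% of 13357 genes did, and 2 of the 4 had an unadjusted p below 0.05. At 6 h, 1 gene, Dppa2, rose, against 7.82% of all genes. At 24 h none of the 4 passed, where 37.9% of all genes did, none had an unadjusted p below 0.05, and a test on the recovered reads with voom called none either. No gene of the 4 changed more than 2-fold at any time, against 0.225% of all genes at 2 h, 0.569% at 6 h and 3.40% at 24 h.

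**Figure D2:**
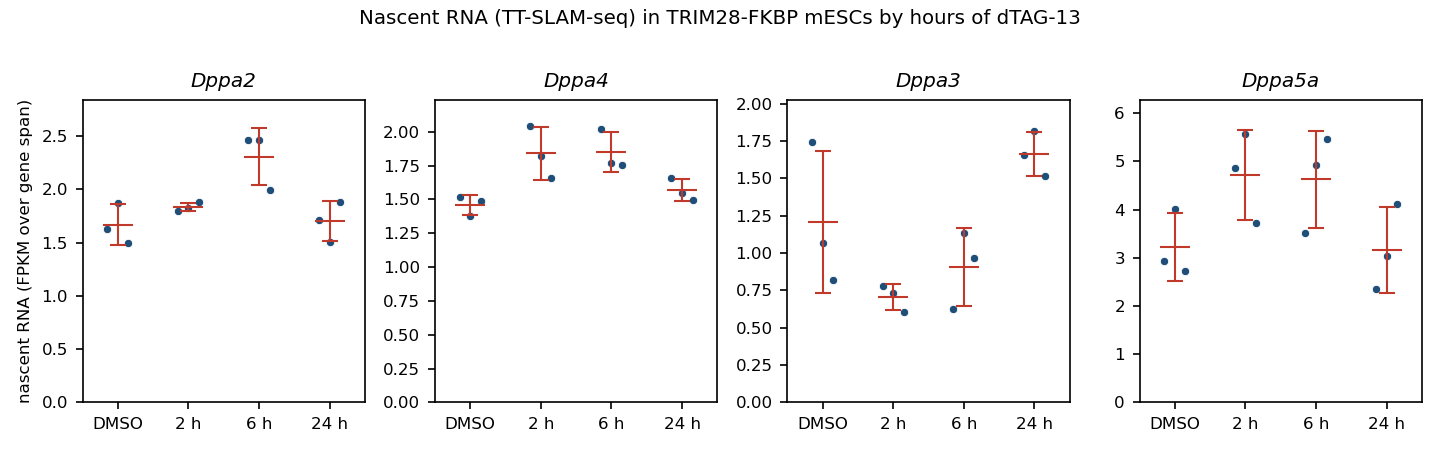
Nascent RNA of the 4 Dppa genes by TT-SLAM-seq (FPKM, linear axes from 0) in DMSO controls and at 2, 6 and 24 h of dTAG-13, with 1 point per library (n = 3) and a red bar for the mean ± SD. At 24 h the ranges of all 4 genes overlap those of DMSO.

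Dppa2 nascent RNA was 1.63, 1.88 and 1.50 FPKM in DMSO and 1.72, 1.51 and 1.88 FPKM at 24 h, from 188 to 713 reads per library. The groups overlapped throughout. The log2 change at 24 h was 0.02 (95% interval -0.19 to 0.24, adjusted p = 0.877), and its direction turned with libraries centred on their median (-0.22), without DMSO replicate 3 (-0.03) or without 24 h replicate 3 (-0.04). Dppa2 was at 2.46, 2.47 and 2.00 FPKM at 6 h, all above DMSO (log2 change 0.37, SE 0.10, adjusted p = 0.0419). That call was lost without any 1 of DMSO replicates 1 to 3 or 6 h replicates 1 and 2 (adjusted p = 0.0638 to 0.146) and with centred libraries (adjusted p = 0.118). Beside the 24 h fall of its steady-state RNA, no fall of Dppa2 nascent RNA was therefore detectable with these libraries. The interval's lower end of -0.19 holds without centring only. With centred libraries the estimate itself was -0.22 (limma adjusted p = 0.163), so the interval sets no firm bound on a fall.

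Dppa4 nascent RNA was 1.51, 1.38 and 1.49 FPKM in DMSO, from 102 to 422 reads per library. It stood at 2.04, 1.82 and 1.65 FPKM at 2 h and at 2.02, 1.77 and 1.76 FPKM at 6 h, above every DMSO library both times. Neither difference passed the test (log2 change 0.25, adjusted p = 0.0908, and 0.26, adjusted p = 0.0578). The 2 h change passed without the 2 h replicate 3 (adjusted p = 0.0467) and with centred libraries (0.0465), and the 6 h change passed with the replicate number as a block (0.0423). At 24 h the values of 1.66, 1.55 and 1.50 FPKM overlapped DMSO (log2 change 0.08, 95% interval -0.09 to 0.25, and -0.16 with libraries centred on their median).

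Dppa3 nascent RNA rested on few reads, 33 to 155 per library, and DMSO replicate 1 stood apart. The DMSO values were 1.74, 1.07 and 0.817 FPKM, those at 2 h were 0.779, 0.729 and 0.606, and those at 24 h were 1.65, 1.82 and 1.52. The 2 h libraries lay below all DMSO libraries and the 24 h libraries above 2 of the 3. The log2 change was -0.47 at 2 h (SE 0.19, adjusted p = 0.193), -0.26 at 6 h (adjusted p = 0.419) and 0.37 at 24 h (adjusted p = 0.151). Without DMSO replicate 1, the 2 h change was -0.26, the 6 h change -0.05 and the 24 h change 0.59, which passed the test (adjusted p = 0.0197). The 24 h change was 0.13 with libraries centred on their median and 0.20 without DMSO replicate 3.

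Dppa5a nascent RNA had the fewest reads, 24 to 102 per library, since the gene spans only 1.126 kb. The DMSO values were 2.93, 4.02 and 2.73 FPKM, those at 6 h were 3.51, 4.91 and 5.46, and those at 24 h were 2.34, 3.03 and 4.11. Every treated group overlapped DMSO. The log2 changes were 0.49 at 2 h (adjusted p = 0.251), 0.46 at 6 h (adjusted p = 0.232) and -0.04 at 24 h (95% interval -0.54 to 0.47). The last turned to 0.11 without DMSO replicate 2 and to 0.13 without 24 h replicate 1, and was -0.28 with libraries centred on their median (adjusted p = 0.355). At 6 h the steady-state RNA of Dppa5a had fallen by 0.58 on the log2 scale, while its nascent RNA had a change of 0.46 that did not pass the test.

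Other genes did fall in the nascent RNA. Of 19 pluripotency genes high enough to test, 9 fell and none rose at 24 h, where 5.59% of all genes fell. The median log2 change of the 19 was -0.32, against 0.21 over all genes. Of the 9, 4 fell more than 2-fold, where 3.40% of all genes changed that far in either direction. Mycn (-2.14), Nr0b1 (-1.84), Fgf4 (-1.09) and Klf4 (-1.02) were those 4. The 4 Dppa genes had a median of 0.05 in the same comparison.

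**Figure D3:**
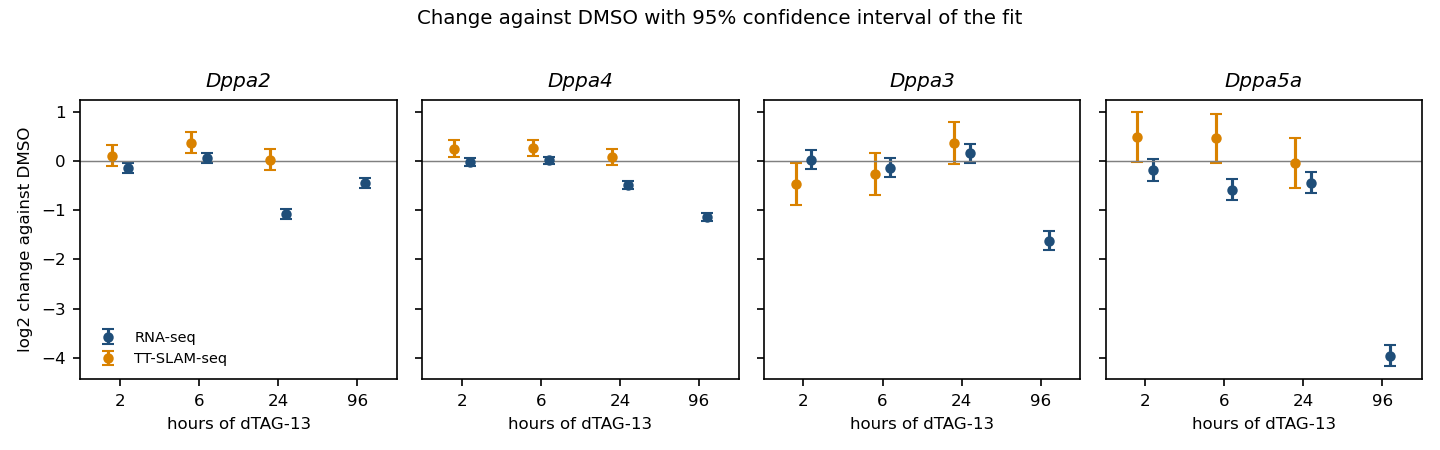
Log2 changes of the 4 Dppa genes against DMSO at each time, for nascent RNA (orange, TT-SLAM-seq) and steady-state RNA (blue, RNA-seq), with 95% intervals. At 24 h the Dppa2 changes are 0.02 in nascent and -1.08 in steady-state RNA, on the scales of the 2 assays.

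In the shREPEATS line, the comparison of dTAG-13 with DMSO at 24 h gave a different order of the 4 genes. Dppa5a and Dppa3 fell most, Dppa4 slightly, and Dppa2 rose slightly. Of the 4 genes, 1 rose, against 41.2% of 16166 genes, and 3 fell, against 12.8%. A single gene, Dppa5a, was lower by more than 2-fold, against 1.44%. All 4 genes had groups without overlap, as did 59.0% of all genes. The median log2 change was 0.14 over all genes.

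Dppa5a was read at 1106, 1269 and 1329 TPM in DMSO, at 494, 493 and 528 TPM with dTAG-13, and at 1321, 1319 and 1302 TPM with dTAG-13 and Dox. The dTAG-13 libraries lay far below both other groups, which overlapped. Dppa5a fell with dTAG-13 to 0.409 times the DMSO level (log2 change -1.29, SE 0.06, adjusted p = 3.58e-08) and was higher by 1.38 with Dox added (SE 0.06, adjusted p = 2.19e-08).

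Dppa3 was read at 57.5, 65.5 and 67.4 TPM in DMSO, at 38.0, 37.0 and 39.4 TPM with dTAG-13, and at 69.5, 71.0 and 67.6 TPM with dTAG-13 and Dox. Every dTAG-13 library was below every other. The log2 change was -0.72 with dTAG-13 (SE 0.06, adjusted p = 1.48e-06) and 0.86 when Dox was added to it (SE 0.06, adjusted p = 4.79e-07).

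Dppa4 was read at 64.0, 69.4 and 66.0 TPM in DMSO, at 63.2, 57.7 and 59.5 TPM with dTAG-13, and at 73.0, 71.9 and 70.5 TPM with dTAG-13 and Dox. The dTAG-13 group was lowest by a narrow gap (log2 change -0.14, adjusted p = 0.0235, or -0.31 with libraries centred on their median), a call that was lost without DMSO replicate 2 or dTAG-13 replicates 2 or 3 (adjusted p = 0.0703 to 0.0867). Dox raised it by 0.25 (adjusted p = 0.00104).

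Dppa2 was read at 61.9, 70.9 and 66.6 TPM in DMSO, at 74.9, 73.0 and 73.9 TPM with dTAG-13, and at 72.9, 73.8 and 66.2 TPM with dTAG-13 and Dox. The dTAG-13 libraries were above all DMSO libraries and overlapped those with Dox. The rise of 0.16 (adjusted p = 0.0363) became -0.01 with libraries centred on their median, and its call was lost without DMSO replicates 1 or 3 or any 1 dTAG-13 library (adjusted p = 0.0582 to 0.106). With Dox added the log2 change was -0.06 (adjusted p = 0.410), or 0.01 with centred libraries.

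**Figure D4:**
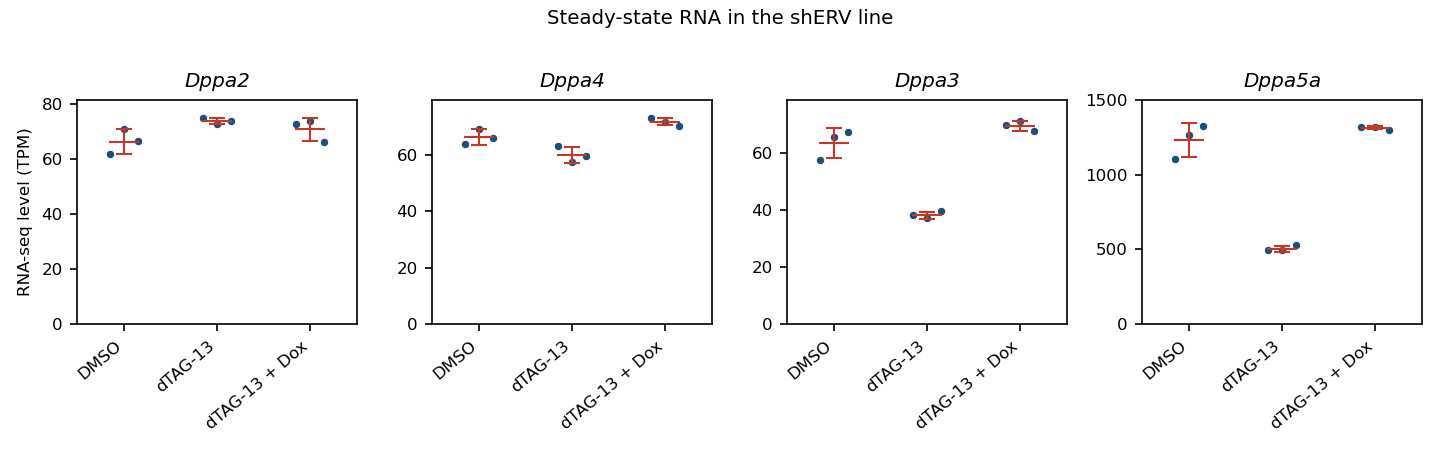
Steady-state RNA of the 4 Dppa genes (TPM, linear axes from 0) in the shREPEATS line (shERV) after DMSO, dTAG-13, and dTAG-13 with Dox for 24 h, with 1 point per library (n = 3) and a red bar for the mean ± SD. Dppa3 and Dppa5a are low only with dTAG-13 alone, at 38.1 ± 1.21 and 505 ± 19.9 TPM.

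When Dox was added to dTAG-13, 3 of the 4 genes rose, against 17.5% of all genes, and none fell. Between dTAG-13 with Dox and DMSO none of the 4 passed the test, where 0.0619% of all genes (10 of 16166) did, although 2 of the 4 had an unadjusted p below 0.05. The log2 differences there lay between 0.09 and 0.13 (adjusted p = 0.261 to 0.388), against 0.09 for the median of all genes.

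The gene lists in the shREPEATS line moved as follows. Of the 20 pluripotency genes, 19 fell with dTAG-13 and 19 rose when Dox was added, where 12.8% and 17.5% of all genes did. Nr0b1 changed by -3.49 and 3.43, and Klf4 by -1.91 and 1.96. Of the 20 genes of the 2-cell list, 18 rose and 1 fell with dTAG-13, where 41.2% of all genes rose and 12.8% fell. When Dox was added 18 fell and 1 rose, where 29.3% of all genes fell. Zscan4b, a 2-cell marker, went from 35.9 ± 3.83 TPM in DMSO to 110.3 ± 9.76 with dTAG-13 (log2 change 1.61, adjusted p = 3.40e-08) and 39.1 ± 0.480 with Dox added. Duxf3 rose from 1.98 to 5.41 TPM on average (log2 change 1.26, SE 0.11, adjusted p = 3.39e-06), beside Dppa2 and Dppa4 changes of 0.16 and -0.14. Of the 9 DNA methylation genes, 2 rose and 4 fell with dTAG-13, with Tet2 at -1.32 (adjusted p = 3.10e-08) and Uhrf1 at -0.10 (adjusted p = 0.0741). Of the 10 germ cell genes, 2 rose and 4 fell. Ooep fell by 1.45 and Khdc3 by 1.06 on the log2 scale, and both rose with Dox, by 1.49 and 1.06. Of the neighbours of Dppa3, Nanog was at 127 ± 6.75 TPM in DMSO, 60.4 ± 3.38 with dTAG-13 and 130.3 ± 2.44 with Dox.

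The 24 h response to dTAG-13 differed between the shREPEATS line and the time course for all 4 genes, as it did for 51.4% of 17653 genes. The difference of the log2 changes, shREPEATS minus time course, was 1.24 for Dppa2 (SE 0.07, adjusted p = 3.54e-07) and 0.34 for Dppa4 (SE 0.07, adjusted p = 0.00138). It was -0.88 for Dppa3 (SE 0.10, adjusted p = 1.98e-05) and -0.84 for Dppa5a (SE 0.12, adjusted p = 8.84e-05). On the 2-cell list all 20 genes were higher in this difference, as were 26.2% of all genes. The experiments also differed in library type (total RNA in the shREPEATS line, mRNA capture in the time course), in the line and in the growth conditions given in the labels, and these cannot be told apart.

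Parental V6.5 mESCs had Dppa2 at 94.4, 93.0 and 91.2 TPM and Dppa3 at 45.3, 43.9 and 47.5 TPM, all below the DMSO libraries of the degron line. Dppa4 was at 169, 169 and 169.8 TPM and Dppa5a at 2189.5, 2143 and 2113 TPM, all above them. Of the 4 genes, 1 was higher and 2 were lower by the test, against 25.0% and 41.0% of 17458 genes. The log2 differences, parental minus tagged, were -0.36 for Dppa2 (adjusted p = 0.000563, or 0.121 with a pseudocount of 0.1), -0.72 for Dppa3 (adjusted p = 2.56e-06), 0.12 for Dppa4 (adjusted p = 0.00579) and 0.22 for Dppa5a (adjusted p = 0.349, or 0.0164 with only the 2 groups in the fit). With libraries centred on their median these differences were -0.17 for Dppa2 (adjusted p = 0.0402), 0.32 for Dppa4 and 0.42 for Dppa5a (adjusted p = 0.0897). All 20 genes of the 2-cell list were lower in parental cells by the test, against 41.0% of all genes, with Zscan4d at 2.68 ± 0.0611 TPM against 36.2 ± 1.06. Of 20 pluripotency genes, 18 were higher, against 25.0%. The lines also differed in feeder marker sums, given above, and in treatment, since parental cells had no DMSO.

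In NPCs, Dppa3 and Dppa4 were listed at 0 TPM in all 3 libraries. Dppa2 was listed at 0.0843, 0.0653 and 0 TPM and Dppa5a at 0.415, 0 and 0 TPM. All 4 genes were lower in NPCs than in tagged mESCs by the test, as were 39.5% of 17458 genes. Over all groups of mESCs, Dppa2 was highest at 6 h and in DMSO, which overlapped, and lowest at 24 h. Dppa3 was highest at 24 h, 2 h and in DMSO, which overlapped, and lowest at 96 h. Dppa5a was highest in parental cells and lowest at 96 h. Dppa4 was highest in parental cells and lowest in the shREPEATS line with dTAG-13, at 60.1 ± 2.82 TPM. These orders mix the total RNA libraries of the shREPEATS line with the mRNA capture libraries of the other groups.

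Other genes of the family gave little signal. Dppa1 was at most 0.0984 TPM in the libraries of the time course and the shREPEATS line, and 0 in parental cells and NPCs. Dppa3-ps, a pseudogene that shares 17.2% of the 784 stretches of 50 bases of Dppa3, was at 2.19 ± 0.195 TPM in DMSO.

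The promoters of the 4 genes were read from the authors' peaks, called in each library, as the highest fold enrichment of a peak within 1 kb of the gene start. All 4 had an H3K27Ac peak in every DMSO library, as did 60.2% of 17922 genes, and 3 of 4 in every dTAG-13 library, against 38.6%. MED23 had a peak at 3 of 4 in both DMSO libraries, against 72.2%, and at 2 of 4 in both dTAG-13 libraries, against 20.8%. RNAPII had one at Dppa5a alone in both conditions, against 52.5% and 26.8% of all genes. H3K9me3 had one at Dppa3 alone in every DMSO library, against 2.82%, and at none of the 4 in every dTAG-13 library, against 0.385%. Peak numbers fell across the genome as well, for MED23 from 63045 and 58925 in DMSO to 15335 and 14551 with dTAG-13, and for RNAPII from 19853 and 19194 to 8182 and 7689. Enrichment was also read over genes with a promoter peak in every DMSO library (no peak counted as 1-fold). Picking genes through their DMSO peaks favours lower values with dTAG-13, so these shares are a description. The mean with dTAG-13 was lower at 99.5% of 12947 such genes for MED23 and 94.8% of 9415 for RNAPII. It was lower at 93.3% of 10789 genes for H3K27Ac and 91.7% of 505 for H3K9me3. Median ratios of dTAG-13 to DMSO were 0.198, 0.291, 0.678 and 0.456 in that order. For MED23 the median with dTAG-13 was 1, the value that stands for no peak, so its ratio is not a measured fold. The dTAG-13 libraries differed among themselves for H3K27Ac (30259, 117348 and 45662 peaks) and H3K9me3 (11474, 105690 and 147611 peaks), and the part of peak number in the values at the 4 promoters was not tested.

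Of the 4 genes, Dppa5a had the strongest MED23 peak reaching within 1 kb of the gene start, with fold enrichments of 20.7 and 20.1 in DMSO and 7.38 and 7.90 with dTAG-13. The summit of that peak in DMSO replicate 1 lay outside this window, 1410 bp upstream. Its RNAPII peak stood at 6.40 and 6.40 in DMSO and at 5.98 and 6.07 with dTAG-13. The H3K27Ac peak of Dppa5a stood at 8.48, 8.99 and 9.04 in DMSO and at 6.68, 10.3 and 3.44 with dTAG-13 (exact permutation test, two-sided, p = 0.400). MED23 enrichment was thus lower in both treated libraries, whereas the H3K27Ac libraries overlapped. The mean was also lower at 99.5% of genes with such a MED23 peak in DMSO, a set picked through DMSO.

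Dppa2 had MED23 peaks of 9.31 and 11.2 in DMSO and 4.35 and 4.74 with dTAG-13, and with the RefSeq gene start it had none in at least 1 treated library. The treated peaks lay elsewhere in the window. Around the DMSO replicate 1 summit (chr16:48303628-48303778), both DMSO libraries had the peak and neither dTAG-13 library had any. Its H3K27Ac peaks stood at 4.89, 4.28 and 5.18 in DMSO and 5.28, 4.20 and 6.70 with dTAG-13 (exact permutation p = 0.500). Dppa4 had a MED23 peak in 1 DMSO library, at 4.96, and none with dTAG-13, and its H3K27Ac peaks stood at 5.73, 8.20 and 5.51 in DMSO and 5.55, 5.03 and 3.09 with dTAG-13 (exact permutation p = 0.200). The H3K27Ac groups of both genes overlapped.

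Dppa3 had a MED23 peak of 5.70 and 4.49 in DMSO and none with dTAG-13. Its H3K27Ac peaks of 3.40, 3.18 and 4.20 in DMSO stood against a single peak of 2.55 with dTAG-13, in replicate 2, the library with the most peaks of its group. Its H3K9me3 peaks of 2.92, 2.85 and 3.14 in DMSO had no counterpart with dTAG-13, the libraries of 105690 and 147611 peaks included. Both differences left no overlap, at an exact permutation p of 0.100, the smallest that 3 against 3 libraries allow, and 2 against 2 libraries of MED23 allow none below 0.333. The median fold enrichment of all H3K9me3 peaks in DMSO was 2.84, 2.37 and 2.65, so the Dppa3 peaks were not strong ones. With −log10 q of at least 10, or the 10000 strongest peaks, Dppa3 lacked an H3K9me3 peak in at least 1 DMSO library.

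At the upstream Dppa3 summit whose sequence, with its 2 octamers, is given above, MED23 enrichment was 32.9 and 27.3 in DMSO and 14.3 and 14.1 with dTAG-13, and no H3K27Ac, H3K9me3 or RNAPII peak overlapped these 151 bases in any library. At the upstream Dppa5a summit MED23 was 20.7 and 20.1 in DMSO and 7.38 and 7.90 with dTAG-13, from the peak that reaches into the promoter window, and RNAPII peaks of 6.32 and 4.96 in DMSO had no counterpart with dTAG-13. These summits were chosen as the strongest in DMSO replicate 1, so the values of that library are a description.

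**Figure D5:**
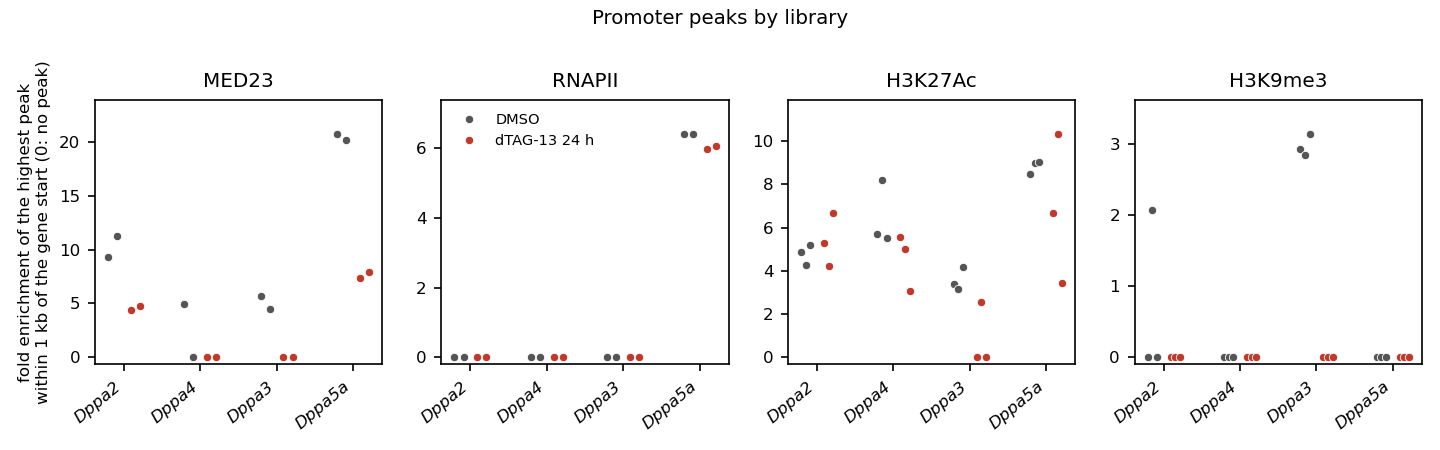
Fold enrichment of the highest peak within 1 kb of the start of each Dppa gene for H3K27Ac, H3K9me3, RNAPII and MED23, for DMSO controls and cells at 24 h of dTAG-13, with 1 point per library. Within this window Dppa5a carries the highest MED23 peaks (20.7 and 20.1 in DMSO, 7.38 and 7.90 with dTAG-13), and only Dppa3 carries an H3K9me3 peak in all 3 DMSO libraries.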

How the data were processed

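The RNA-seq tables hold TPM, FPKM and a mean coverage signal per gene, deposited by the authors, who per the labels used mRNA capture libraries (total RNA with ribosomal depletion for the shREPEATS line), cutadapt 2.4, STAR 2.7.5a and StringTie 2.0.6 on mm10. The nascent RNA table deposited by the authors holds FPKM of reads with T-to-C changes over whole genes, with GENCODE VM19. In it, 98.3 to 99.4% of low values were whole reads within 0.1. Peak files deposited by the authors give fold enrichment as a ratio and −log10 p and q from MACS2, called per library on mm10, with GATK 4.1.4.1 upstream. Coverage served only for relative depth.

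For this report, limma 3.58.1 (R 4.3.3, trend) was fitted to log2 of the value plus 0.5 over all groups of an experiment, with Benjamini-Hochberg adjustment over genes at 1 TPM (0.5 FPKM) or more in at least 3 libraries. Samples were grouped by titles. A promoter peak overlaps the 1 kb on either side of the gene start by at least 1 bp. The scripts were tested on simulated data. Of 78 samples, 62 were used and 16 (inputs, HiC and single-cell data) were not analysed here. The 4 genes and all lists were chosen with earlier results of these data known. A gene was named as 1 of the 4, as a neighbour within 100 kb, as 1 of the 3 nearest by likeness, or as a list gene among those with the largest change, and other genes named were chosen after their values were seen. 1 gene that this rule names is not reported here.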

Additional observations from a re-analysis of the deposited data

Results flagged for a closer look

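The 24 h response to dTAG-13 differed between the shREPEATS line and the time course for all 4 Dppa genes, by the interaction term of limma over 17653 genes, of which 51.4% also passed. The difference of the log2 changes was 1.24 for Dppa2, -0.88 for Dppa3, 0.34 for Dppa4 and -0.84 for Dppa5a. Dppa2 was lower with dTAG-13 in all 3 libraries of the time course and higher in all 3 of the shREPEATS line, whereas Dppa3 overlapped DMSO in the former and was lower in all 3 libraries of the latter. Over 20 alternatives the Dppa2 difference ranged from 1.16 to 1.36. Library type, line and the growth conditions in the labels differ along with the experiment and cannot be told apart.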

How the results depend on the processing

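Counts of Dppa genes changed more than 2-fold were the same in 201 of 201 alternatives, and single genes kept their direction and side of the threshold in 749 of 792. With libraries centred on their median, the direction turned for Dppa2 (-0.22) and Dppa4 (-0.16) in nascent RNA at 24 h, for Dppa2 (-0.026) and Dppa4 (-0.080) in RNA at 6 h, for Dppa3 (-0.13) at 24 h, and in the shREPEATS line for Dppa2 with dTAG-13 (-0.0094) and with Dox added (0.011). Leaving out 1 library put Dppa2 nascent RNA at 24 h between -0.036 (-0.035 without DMSO replicate 3) and 0.091, Dppa5a nascent RNA between -0.22 and 0.13 (0.11 without DMSO replicate 2), Dppa3 RNA at 2 h between -0.022 and 0.084 and Dppa4 RNA at 6 h between -0.0090 and 0.026. Voom on recovered reads, added after seeing the data, gave -0.0027 for Dppa2 nascent RNA at 24 h. The Dppa2 call in nascent RNA at 6 h was also lost with no filter on low values (adjusted p = 0.0643) and with only its groups in the fit (0.113). The cause was not tested.

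Same-numbered replicates had correlations between -0.205 and 0.177, and no comparison had every pair over 0.1, so the numbers do not pair the samples. The replicate block lost the Dppa2 call in nascent RNA at 6 h (log2 change 0.37, adjusted p = 0.0732), gained those of Dppa4 there (0.0423) and of Dppa3 RNA at 24 h (0.0471), and moved no count of genes changed more than 2-fold.

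The number of the 4 genes with a promoter peak in every library moved most under stricter peaks. With −log10 q of at least 10 it was 0 for H3K27Ac with dTAG-13, H3K9me3 in DMSO, RNAPII with dTAG-13 and MED23 with dTAG-13. With the 10000 strongest peaks of each library it was 1 for H3K27Ac in DMSO, 0 with dTAG-13, 0 for H3K9me3 in DMSO, and 1 for MED23 in DMSO and with dTAG-13. Within 250 bp, or from the RefSeq gene start (added after seeing the data), it was 1 for MED23 with dTAG-13. Depth limits the nascent values of Dppa3 and Dppa5a, which rest on as few as 33 and 24 reads.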
